A study of Mus musculus with 25 samples.

Results

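Transcripts of the circadian clock were followed through the mouse duodenum, the stretch of small intestine that receives the stomach's contents. The 10 genes, taken by symbol from the 17007 genes of the deposited count table, were the activators Arntl and Npas2, the repressors Nr1d1, Nr1d2, Per1, Per2, Per3 and Ciart, and the output factors Dbp and Tef. All 10 passed the filter on low counts in each of 6 comparisons between groups. RNA came from male mice of the C57BL/6N strain (wild type, WT) or of the Aldh2KI genotype (KI), a knock-in at the gene of mitochondrial aldehyde dehydrogenase, the enzyme that clears the acetaldehyde made from ethanol. KI_Half (6 libraries) were KI mice fed 2.5% ethanol and gavaged 2 times per week with ethanol at 2 g/kg, and KI_Con (4 libraries) were KI mice on the control diet. WT_Con (4 libraries) were wild-type mice on the control diet, WT_Half (7 libraries) received the same ethanol regimen as KI_Half, and WT_Full (4 libraries) were fed 5% ethanol and gavaged as often at 4 g/kg. Diets began at 8 weeks of age and lasted 8 weeks, and the ethanol groups were killed 9 h after a last ethanol gavage of 5 g/kg. The introduced Aldh2 allele, the gavage of control mice and the clock time at which any mouse was killed could not be learned from the labels. Ethanol, the last gavage and the time of day of collection therefore cannot be told apart in any comparison of an ethanol group with a control group.

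In the mammalian clock, ARNTL (BMAL1) pairs with CLOCK or its relative NPAS2 and switches on genes that carry E-boxes, among them the Per, Cry, Nr1d and Ciart genes and the output factor Dbp. PER and CRY proteins and CIART inhibit that pair, while the nuclear receptors NR1D1 and NR1D2 (REV-ERB alpha and beta) sit on response elements shared with the ROR receptors and silence Arntl and Npas2, so that these activator transcripts run high when the Nr1d and Dbp transcripts run low. DBP, TEF and HLF activate genes through D-boxes, which the repressor NFIL3 also binds. In the intestine the clock runs in epithelial cells, follows feeding time and governs rhythms of nutrient transport and barrier genes. A shift of phase can move the activators and the opposite arm in opposite directions at a fixed hour, though not at every hour nor for every gene. Libraries without a stated clock time of collection cannot tell a shift from a change of level.

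Each library held between 24.6 and 44.8 M counts (M for mega), the median being 32.0 M. The 9 enterocyte markers in the data summed to between 15000 and 29900 CPM (counts per 1 M counts of the library) in every library. The sum of 4 duodenal markers moved with ethanol, at 689 to 1490 CPM in KI_Half and 2060 to 2380 CPM in KI_Con, and over the wild-type groups at 2040 to 2730 CPM in WT_Con, 661 to 2170 CPM in WT_Half and 927 to 1830 CPM in WT_Full. Most of it in the controls came from the iron genes Slc40a1 (ferroportin) and Cybrd1 (duodenal ferric reductase), which fell in KI_Half vs KI_Con by 1.56 ± 0.20 and 2.26 ± 0.55 on the log2 scale (adjusted p = 4.63e-04 and 0.00866). The duodenal transcription factor genes Pdx1 and Gata4 were present in every library, with log2 differences of -0.28 ± 0.18 and 0.08 ± 0.15 in that comparison (adjusted p = 0.236 and 0.692). Libraries differed in the tissue around the epithelium. Ctrb1, a pancreatic acinar enzyme gene, exceeded 10 CPM in 5 libraries, all of them controls: WT_Con replicates 1, 3 and 4, and KI_Con replicates 1 and 2. The 7 acinar markers summed to between 4.88 and 10.3 CPM in KI_Half and 7.11 and 3950 CPM in KI_Con, and over the wild-type groups they reached 1960 CPM in WT_Con, 39.7 CPM in WT_Half and 6.36 CPM in WT_Full. The 8 T and NK cell markers summed to between 29.1 and 150 CPM in KI_Half, against 210 and 267 CPM in KI_Con. In the wild-type groups they summed to between 101 and 271 CPM in WT_Con, 10.4 and 152 CPM in WT_Half, and 11.2 and 50.8 CPM in WT_Full. The 3 Brunner gland markers ran from 15.3 to 53700 CPM over the libraries and ranged most in WT_Con, from 35.1 to 53700 CPM. The 5 MHC class II genes summed to between 191 and 1380 CPM in KI_Half and 778 and 3170 CPM in KI_Con, and over the wild-type groups to between 1450 and 1870 CPM in WT_Con, 183 and 840 CPM in WT_Half, and 121 and 1110 CPM in WT_Full. The 4 B and plasma cell markers in the data summed to between 143 and 729 CPM in KI_Half and 861 and 1260 CPM in KI_Con, and to between 602 and 1210 CPM in WT_Con, 230 and 754 CPM in WT_Half, and 116 and 740 CPM in WT_Full. The sum of 6 smooth muscle markers overlapped between all groups. No marker of these lists was at 0 throughout. The part of lymphocyte and MHC class II content, and of the duodenal marker sum, in the results was not tested. For the acinar and Brunner gland content, fits without the 5 libraries or with a Brunner gland covariate are given after the single genes. They are reported as counts of called genes or as values that these settings moved. In whole tissue, fewer cells of a type and less RNA per cell cannot be told apart.

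The promoters below, 250 bases before to 50 bases after a transcript start, were chosen for their matches to clock elements. They were taken from RefSeq on GRCm38.p6, which holds 12 promoters for 9 of the 10 genes. Capitals mark matches on either strand to the E-box CACGTG, to the D-box TTATGTAA or TTACGTAA, or to TNGGTCA. The last is a loose pattern after the element read by ROR and REV-ERB receptors, since its N allows any base. A ROR-type match below is a match to this pattern and need not be such an element. Ciart was chosen for its 3 E-boxes (chr3:95882179-95882478, minus strand), Per3 for its 2 D-boxes and 1 ROR-type match (chr4:151044616-151044915, minus strand), and the downstream Arntl start for its 3 ROR-type matches (chr7:113207261-113207560, plus strand).
Ciart: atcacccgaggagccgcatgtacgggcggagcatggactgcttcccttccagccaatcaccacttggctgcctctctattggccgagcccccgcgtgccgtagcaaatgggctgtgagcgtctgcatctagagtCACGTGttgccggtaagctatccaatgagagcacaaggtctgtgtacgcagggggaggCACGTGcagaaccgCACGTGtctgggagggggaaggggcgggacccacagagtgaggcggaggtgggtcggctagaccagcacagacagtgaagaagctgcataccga
Per3: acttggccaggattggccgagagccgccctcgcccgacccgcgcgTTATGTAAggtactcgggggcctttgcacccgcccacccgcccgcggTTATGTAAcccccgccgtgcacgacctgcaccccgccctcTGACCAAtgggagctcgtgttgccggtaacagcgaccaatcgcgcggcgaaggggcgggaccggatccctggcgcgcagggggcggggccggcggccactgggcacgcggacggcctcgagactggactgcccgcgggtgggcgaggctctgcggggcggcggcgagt
Arntl: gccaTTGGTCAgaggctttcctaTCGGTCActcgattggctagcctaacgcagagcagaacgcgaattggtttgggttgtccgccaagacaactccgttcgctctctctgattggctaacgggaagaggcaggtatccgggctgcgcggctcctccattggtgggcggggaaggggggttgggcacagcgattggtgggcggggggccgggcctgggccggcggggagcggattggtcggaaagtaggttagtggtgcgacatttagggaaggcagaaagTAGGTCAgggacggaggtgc
An E-box stood in a listed promoter of 3 of the 9 genes (Ciart, Per1 and Tef), against 7.15% of all 32851 RefSeq promoters of that length. A D-box stood in Per3 alone, against 1.06% of all promoters, and a ROR-type match in Arntl, Per3 and Tef, against 11% of all promoters. The shares count single promoters, while a gene counted with a match in any of its listed promoters, so the units differ. Npas2, Nr1d1, Nr1d2 and Dbp had no match to any of these motifs. No motif searched for overlapped another in the 3 sequences shown. These matches are letters in a window of 300 bases and say nothing on binding in these libraries.

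Most clock transcripts differed between ethanol-fed KI mice and their controls. In KI_Half vs KI_Con, 8 of the 10 genes passed an adjusted p under 0.05 (edgeR quasi-likelihood F test, Benjamini-Hochberg adjustment over all genes tested; such a gene is called below), with Arntl and Npas2 higher and Nr1d1, Nr1d2, Per3, Ciart, Dbp and Tef lower. Of all 16944 genes in that comparison, 37.9% were called, 20.0% higher and 17.9% lower. The groups did not overlap for 1 higher and 6 lower members, against 13.5% and 13.9% of all genes. Nr1d2 had the smallest p of all of them, Dbp ranked 7 and Nr1d1 ranked 11. In WT_Half vs WT_Con, 3 of 10 were called, Nr1d1, Nr1d2 and Dbp, all lower, against 1.47% of 16993 genes (0.571% lower). There the groups did not overlap for 2 higher and 4 lower members, against 3.10% and 2.17% of all genes. In WT_Full vs WT_Con none of the 10 was called, against 0.00592% of 16882 genes, which is 1 gene. Per1 and Per2 were called in none of these comparisons.

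**Figure D1:**
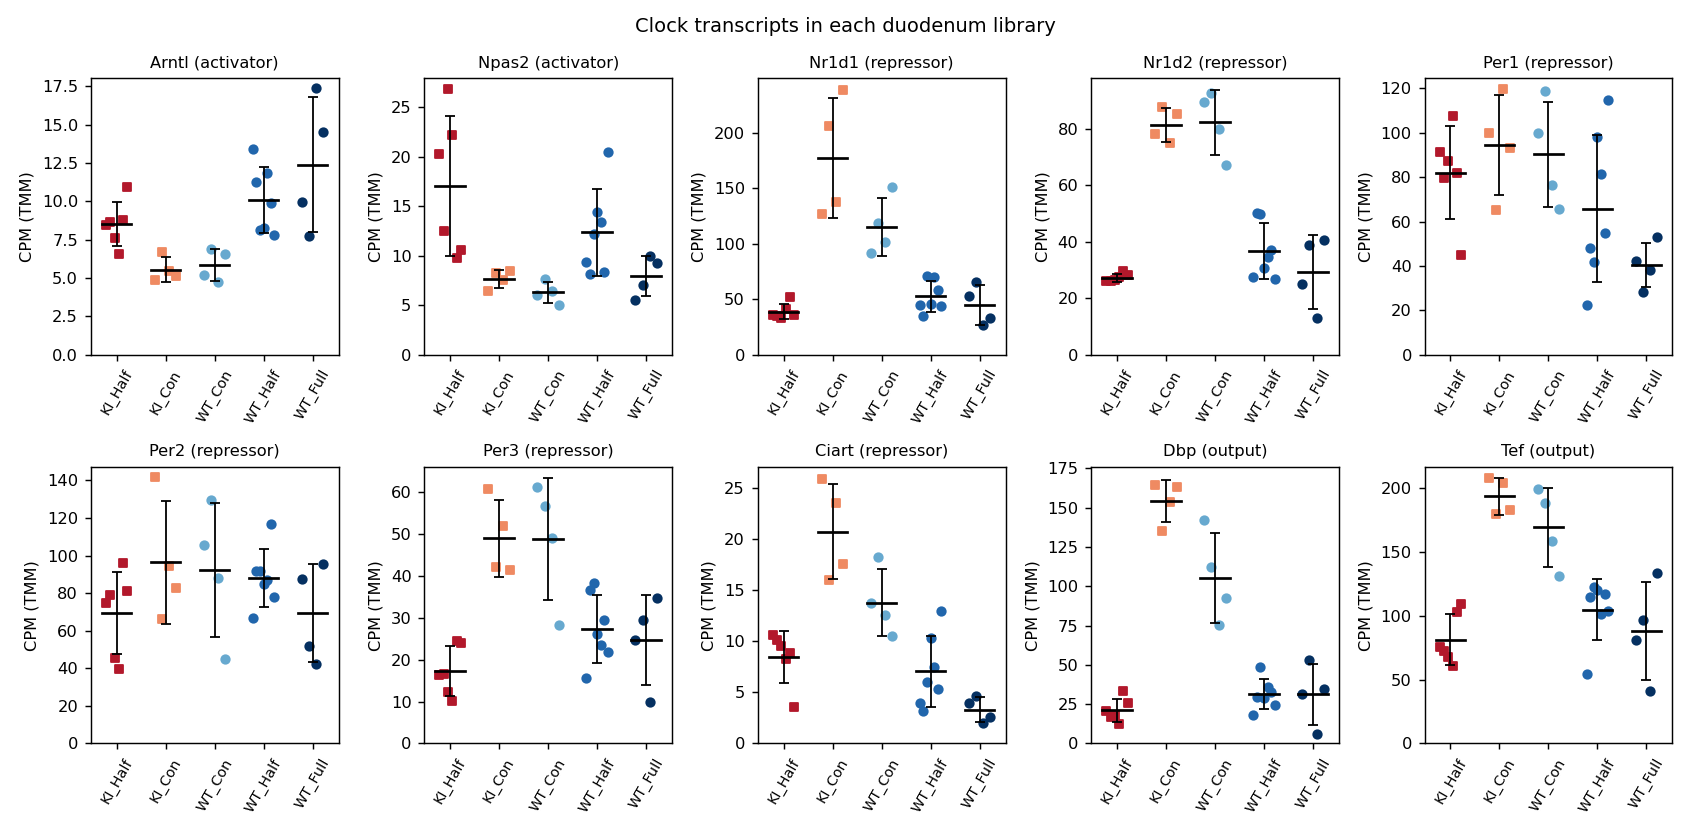
Level of each of the 10 clock genes in every library, in CPM after TMM normalisation, with 1 point per library, a line at the group mean and bars of 1 SD. Groups stand from left to right as KI_Half, KI_Con, WT_Con, WT_Half and WT_Full (n = 6, 4, 4, 7 and 4); Nr1d2 lies at 26.1 to 29.7 CPM in KI_Half and at 74.9 to 87.8 CPM in KI_Con, while Per2 overlaps between all groups.

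In KI mice both activators rose on ethanol. Arntl (ENSMUSG00000055116, GRCm38 chr7:113207465-113314126, plus strand), the obligate partner of CLOCK and NPAS2, had a lowest, median and highest level of 6.59, 8.56 and 10.9 CPM in KI_Half, against 4.88, 6.70, 5.49 and 5.13 CPM in the KI_Con libraries. The groups overlapped by a single library on each side, and Arntl rose by 0.63 ± 0.17 on the log2 scale (± SE; adjusted p = 0.0133). In wild-type mice it had 5.21, 6.88, 4.72 and 6.55 CPM in WT_Con, then 7.79, 9.89 and 13.4 CPM (lowest, median, highest) in WT_Half and 9.95, 7.72, 17.4 and 14.6 CPM in WT_Full. Every ethanol library of wild-type mice lay above every WT_Con library. The log2 difference was 0.80 ± 0.20 in WT_Half vs WT_Con (adjusted p = 0.0621) and 1.10 ± 0.28 in WT_Full vs WT_Con (adjusted p = 0.159), so neither was called.

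Npas2 (ENSMUSG00000026077, chr1:39193731-39363236, plus strand), the CLOCK relative that can take its place, had 9.75, 16.4 and 26.8 CPM (lowest, median, highest) in KI_Half, against 6.46, 8.28, 7.51 and 8.41 CPM in KI_Con. The groups did not overlap, and it rose by 1.16 ± 0.29 on the log2 scale (adjusted p = 0.00925). Wild-type levels were 6.01, 7.64, 6.46 and 5.03 CPM in WT_Con, then 8.17, 12.2 and 20.4 CPM in WT_Half and 5.54, 7.07, 9.95 and 9.31 CPM in WT_Full. WT_Half lay wholly above WT_Con (log2 difference 0.98 ± 0.26, adjusted p = 0.0703), whereas WT_Full overlapped it (0.35 ± 0.25, adjusted p = 0.464). Without the 2 KI_Con libraries above 10 CPM of Ctrb1, both activators stayed higher in KI_Half but missed the threshold, with adjusted p = 0.0658 for Arntl and 0.0933 for Npas2.

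The REV-ERB receptor genes, whose products silence the activators, fell in KI_Half and in WT_Half. Nr1d1 (ENSMUSG00000020889, chr11:98767932-98775333, minus strand) had 33.6, 35.9 and 52.2 CPM (lowest, median, highest) in KI_Half, against 127, 207, 137.5 and 239 CPM in KI_Con. It fell by 2.17 ± 0.18 on the log2 scale (adjusted p = 1.37e-04), and the highest KI_Half library was below the lowest KI_Con library. In wild-type mice it had 91.4, 119, 102 and 151 CPM in WT_Con, then 35.4, 45.8 and 71.0 CPM in WT_Half and 53.4, 65.5, 27.3 and 33.6 CPM in WT_Full. Neither ethanol group overlapped WT_Con. The log2 difference was -1.13 ± 0.20 in WT_Half vs WT_Con (adjusted p = 0.0202) and -1.36 ± 0.29 in WT_Full vs WT_Con (adjusted p = 0.129).

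Nr1d2 (ENSMUSG00000021775, chr14:18204054-18239127, minus strand) was the steadiest of the 10 genes within KI_Half, at 26.1, 27.0 and 29.7 CPM (lowest, median, highest), against 78.2, 87.8, 74.9 and 85.1 CPM in KI_Con. Its log2 difference of -1.57 ± 0.08 (adjusted p = 4.79e-06) was smaller than that of Nr1d1 but had a much smaller error. In wild-type mice Nr1d2 had 89.5, 92.9, 79.9 and 67.3 CPM in WT_Con, then 26.7, 34.7 and 50.3 CPM in WT_Half and 25.01, 38.8, 12.9 and 40.8 CPM in WT_Full. It fell by 1.16 ± 0.18 in WT_Half (adjusted p = 0.0178), and the difference in WT_Full was -1.49 ± 0.32 (adjusted p = 0.129). WT_Full replicate 3, at 12.9 CPM, was the lowest of the 25 libraries.

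Of the period genes, whose proteins form the classical negative limb, Per3 alone was called. Per3 (ENSMUSG00000028957, chr4:151003652-151044665, minus strand), the gene with the D-boxes shown above, had 10.2, 16.4 and 24.5 CPM (lowest, median, highest) in KI_Half, against 60.7, 42.0, 51.9 and 41.3 CPM in KI_Con, without overlap. It fell by 1.49 ± 0.24 on the log2 scale (adjusted p = 0.00112). The wild-type libraries had 61.1, 56.6, 49.0 and 28.4 CPM in WT_Con, then 15.7, 26.2 and 38.2 CPM in WT_Half and 24.7, 29.4, 9.87 and 34.8 CPM in WT_Full. WT_Con replicate 4, at 28.4 CPM, lay inside the range of both ethanol groups. The log2 difference was -0.83 ± 0.25 in WT_Half vs WT_Con (adjusted p = 0.0956) and -0.98 ± 0.37 in WT_Full vs WT_Con (adjusted p = 0.232).

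Per1 (ENSMUSG00000020893, chr11:69095217-69109960, plus strand), which also answers acutely to glucocorticoids and other stimuli, overlapped in the KI comparison, at 44.8, 84.5 and 108 CPM (lowest, median, highest) in KI_Half against 100.1, 65.2, 119.6 and 93.1 CPM in KI_Con. The log2 difference was -0.20 ± 0.22 (adjusted p = 0.499). In wild-type mice it had 99.99, 119, 76.5 and 65.8 CPM in WT_Con, then 22.3, 54.9 and 115 CPM in WT_Half and 42.2, 28.5, 38.1 and 52.9 CPM in WT_Full. All 4 WT_Full libraries lay below WT_Con (log2 difference -1.15 ± 0.24, adjusted p = 0.129), while WT_Half spread across it (-0.45 ± 0.36, adjusted p = 0.485).

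Per2 (ENSMUSG00000055866, chr1:91415982-91459324, minus strand), which with Per1 sits in the same protein complex as the CRY repressors, was not called by edgeR in any comparison and overlapped between all groups. It had 39.7, 77.0 and 96.0 CPM in KI_Half, against 142, 66.1, 94.3 and 82.9 CPM in KI_Con, a log2 difference of -0.46 ± 0.27 (adjusted p = 0.192). Wild-type levels were 106, 129.7, 87.9 and 45.1 CPM in WT_Con, then 66.9, 87.0 and 117 CPM in WT_Half and 87.3, 51.9, 42.3 and 95.7 CPM in WT_Full. The difference was -0.06 ± 0.23 in WT_Half vs WT_Con (adjusted p = 0.907) and -0.40 ± 0.35 in WT_Full vs WT_Con (adjusted p = 0.556).

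Ciart (ENSMUSG00000038550, chr3:95878503-95882251, minus strand), the E-box gene shown above, had 3.60, 9.21 and 10.6 CPM (lowest, median, highest) in KI_Half, against 25.8, 15.99, 23.5 and 17.6 CPM in KI_Con. It fell by 1.28 ± 0.25 on the log2 scale (adjusted p = 0.00306). In wild-type mice it had 13.8, 18.2, 12.5 and 10.5 CPM in WT_Con, then 3.22, 6.01 and 12.9 CPM in WT_Half and 3.91, 4.67, 1.96 and 2.61 CPM in WT_Full. The WT_Full libraries all lay below 5 CPM and the WT_Con libraries all above 10 CPM. Its log2 difference of -2.06 ± 0.31 in WT_Full vs WT_Con ranked 19 of 16882 genes by p, with adjusted p = 0.0756. In WT_Half vs WT_Con the groups overlapped, with -0.96 ± 0.34 (adjusted p = 0.137).

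Both output factors fell in KI_Half. Dbp (ENSMUSG00000059824, chr7:45705088-45710203, plus strand), a D-box activator driven by CLOCK and ARNTL, had 12.5, 19.3 and 33.2 CPM (lowest, median, highest) in KI_Half, against 165, 135, 153 and 163 CPM in KI_Con. Its fall by 2.86 ± 0.23 on the log2 scale was the largest of the 10 genes in that comparison (adjusted p = 9.26e-05). The wild-type libraries had 142, 112, 75.6 and 92.2 CPM in WT_Con, then 18.4, 29.6 and 48.6 CPM in WT_Half and 31.6, 53.1, 6.04 and 34.9 CPM in WT_Full, without overlap between either ethanol group and WT_Con. The log2 difference was -1.75 ± 0.23 in WT_Half vs WT_Con (adjusted p = 0.00936, rank 8 by p) and -1.75 ± 0.52 in WT_Full vs WT_Con (adjusted p = 0.181). Those estimates were alike in size, and the error was larger in WT_Full, where a single library had 6.04 CPM.

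Tef (ENSMUSG00000022389, chr15:81802421-81826863, plus strand), a relative of Dbp with an E-box and a ROR-type match in its listed promoters, had 60.5, 74.0 and 109 CPM (lowest, median, highest) in KI_Half, against 208, 179, 204 and 182.5 CPM in KI_Con. It fell by 1.24 ± 0.16 on the log2 scale (adjusted p = 5.50e-04). Wild-type levels were 199, 188, 158 and 131 CPM in WT_Con, then 54.3, 115 and 123 CPM in WT_Half and 81.3, 96.7, 41.0 and 133 CPM in WT_Full. WT_Half lay below WT_Con throughout (log2 difference -0.69 ± 0.19, adjusted p = 0.0839), and WT_Full overlapped it by 1 library (-0.94 ± 0.31, adjusted p = 0.1998).

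**Figure D2:**
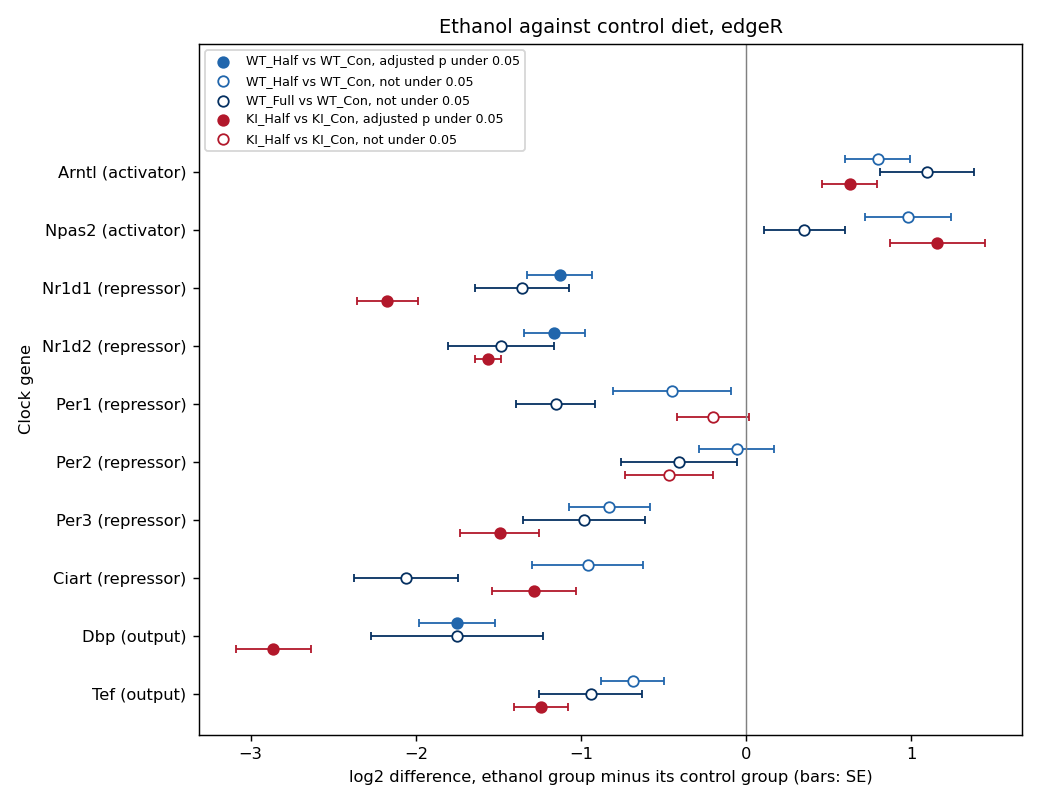
Log2 difference of each clock gene between an ethanol group and the control group of its genotype, with bars of 1 SE from the edgeR fit; filled points had an adjusted p under 0.05. Arntl and Npas2 lie right of 0 and the other 8 genes left of 0 in each comparison, from -2.86 for Dbp in KI_Half vs KI_Con to -0.06 for Per2 in WT_Half vs WT_Con.

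How many clock genes were called in wild-type mice depended on the test. In WT_Full vs WT_Con, edgeR called 0 of 10, although 8 of 10 had an unadjusted p under 0.05 (1 higher and 7 lower), against 17.8% of all genes (9.94% higher and 7.85% lower). The groups did not overlap for 1 higher and 5 lower members, against 4.22% and 3.78% of all genes. DESeq2 called 6 of 10 (5.49% of all genes), limma-voom with sample quality weights called 6 (8.35%), and edgeR called 7 when all 25 libraries shared 1 fit (7.58%). Without WT_Full replicate 4, edgeR called 5 of 10, Nr1d1, Nr1d2, Per1, Ciart and Tef, all lower, against 12.2% of all genes. In the authors' deposited table for this comparison, 8 of 10 members had an adjusted p under 0.05, all but Npas2 and Per2, as had 11.5% of all genes. The lowest adjusted p there was 2.85e-06, for Nr1d2, in the authors' deposited table. With the Brunner gland covariate edgeR called 0 of 10, against 0% of all genes. Leaving out the libraries high in Ctrb1 kept WT_Con replicate 2 as the lone control library, so only estimates are given for that fit. The log2 difference of Npas2 was 0.04 ± 0.28 with the covariate and 0.08 ± 0.46 with the lone control. That of Per2 was -0.89 ± 0.44 with the lone control.

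In WT_Half vs WT_Con, Dbp was called whichever library was left out. Nr1d2 was no longer called once WT_Con replicate 1 was left out (adjusted p = 0.0600). Nr1d1 was not called without WT_Con replicate 1 or 4 or WT_Half replicate 4 or 7 (adjusted p = 0.0505, 0.0766, 0.0557 and 0.0535). Tef was called as well without WT_Half replicate 1 (adjusted p = 0.0310). Over those fits 0.124% to 2.63% of all genes were called. With the Brunner gland covariate Dbp alone was called (-1.81 ± 0.26, adjusted p = 0.0400), against 0.0412% of all genes. With WT_Con replicates 1, 3 and 4 (those high in Ctrb1) left out, a lone control library is assumed to vary like WT_Half, and none was called, against 0% of all genes, while the estimates were -1.85 ± 0.34 for Dbp, -1.34 ± 0.31 for Nr1d2 and -1.18 ± 0.32 for Nr1d1. Per2 was at -0.56 ± 0.24 and Per1 at -0.86 ± 0.62 in that fit. In KI_Half vs KI_Con, leaving out any library kept 8 of 10 called, where 29.0% to 44.2% of all genes were called. With the Brunner gland covariate 8 were called as well, against 34.6% of all genes. Without the KI_Con libraries high in Ctrb1, the 6 lower genes were still called, against 15.1% of all genes, with -1.54 ± 0.10 for Nr1d2 and -2.90 ± 0.28 for Dbp.

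The KI and wild-type groups were next compared with each other. In KI_Half vs WT_Half edgeR called 0 of 10, against 0% of all genes. Per3, Nr1d2, Nr1d1 and Dbp were lower at an unadjusted p under 0.05 (7.12% of all genes), with log2 differences of -0.66 ± 0.24, -0.42 ± 0.15, -0.43 ± 0.17 and -0.57 ± 0.24. DESeq2 called none of the 10, against 1.01% of all genes, and limma-voom called 3 (Per3, Dbp and Tef, lower), against 5.23% of all genes. The authors' deposited table for this comparison had none of the 10 under 0.05, against 1.24% of all genes. In KI_Con vs WT_Con edgeR, DESeq2 and limma-voom each called 0 of 10, against 0%, 0.0647% and 0.0119% of all genes. Nr1d1, Ciart and Dbp were higher in KI_Con at an unadjusted p under 0.05 (4.03% of all genes), by 0.60 ± 0.23, 0.58 ± 0.21 and 0.53 ± 0.18 on the log2 scale. Without the libraries high in Ctrb1, Ciart was at 0.18 ± 0.25 and Per2 at -0.54 ± 0.15. That fit left WT_Con replicate 2 as the lone wild-type library.

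Whether the ethanol difference itself depended on genotype was tested as an interaction over the KI_Half, KI_Con, WT_Half and WT_Con libraries. EdgeR called 0 of 10, against 0% of all genes, and DESeq2 called none, against 0.212%. Nr1d1 and Dbp had an unadjusted p under 0.05 and a negative interaction (6.09% of all genes), of -1.04 ± 0.29 and -1.11 ± 0.34 (adjusted p = 0.327 and 0.334). Without the libraries high in Ctrb1 these were -1.10 ± 0.45 and -1.07 ± 0.55, with WT_Con replicate 2 as the lone wild-type control. The interaction takes in the control groups too. Nr1d1 and Dbp were at 0.60 and 0.53 in KI_Con vs WT_Con, and at -0.43 and -0.57 in KI_Half vs WT_Half. Limma-voom called 3 of 10, Per3, Dbp and Tef, with -1.06 ± 0.32, -1.34 ± 0.27 and -0.82 ± 0.20 (adjusted p = 0.0497, 0.0212 and 0.0282), against 6.69% of all genes. The larger number of calls in KI mice is thus not shown by edgeR to be a genotype difference.

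The strength of the regimen made no called difference in wild-type mice. In WT_Full vs WT_Half edgeR, DESeq2 and limma-voom each called 0 of 10, against 0%, 0.118% and 0.0118% of all genes. Ciart and Npas2 were lower in WT_Full at an unadjusted p under 0.05 (2.04% of all genes), with log2 differences of -1.09 ± 0.40 and -0.61 ± 0.28. Dbp was level between them, with 31.4 ± 19.4 CPM in WT_Full and 31.3 ± 9.51 CPM in WT_Half (SD, n = 4 and 7), and a log2 difference of 0.01 ± 0.41.

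To see both arms in each animal, the log2 CPM of each gene was centred on its mean over the 25 libraries, and the mean of the 2 activators was subtracted from the mean of the 8 repressor and output genes. This arm difference averaged -0.81 in KI_Half, ranging from -1.27 to -0.13, and 1.46 in KI_Con, ranging from 1.08 to 1.80. Over the wild-type groups it averaged 1.30 in WT_Con (1.01 to 1.57), -0.46 in WT_Half (-1.19 to -0.10) and -0.73 in WT_Full (-2.08 to -0.02). All 8 control libraries lay above 0 and all 17 ethanol libraries below it. The arm difference is a description and carries no test, since the genes and their arms were chosen with earlier results of these data known.

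**Figure D3:**
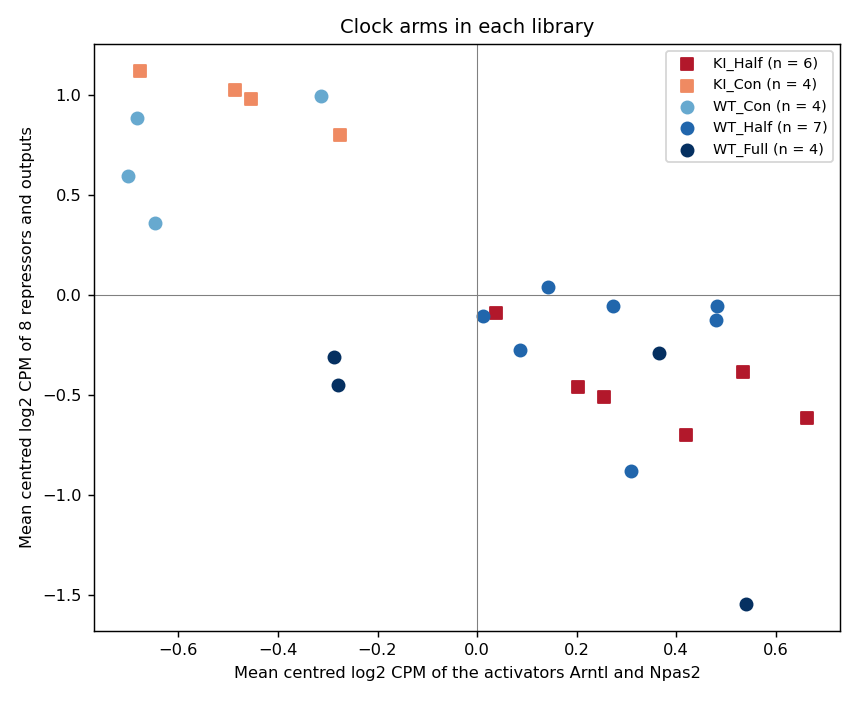
Each of the 25 libraries by the mean centred log2 CPM of Arntl and Npas2 (x axis) and of the 8 repressor and output genes (y axis), with squares for KI mice and circles for wild-type mice. The control libraries fall in the upper left, and the ethanol libraries lie lower; WT_Full replicates 1 and 2 are low on both axes, at -0.28 and -0.29 for the activators.

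The wild-type libraries on the stronger regimen were spread widest. WT_Full replicate 3 had an arm difference of -2.08, with the highest Arntl level of all 25 libraries and the lowest Nr1d1, Nr1d2, Per3, Ciart, Dbp and Tef levels. WT_Full replicates 1 and 2 had arm differences of -0.17 and -0.02, with both arms below their means over the 25 libraries. In KI_Half the activators were above and the repressors and outputs below those means in all 6 libraries. The T and NK cell marker sum was also lowest of the WT_Full group in replicate 3, at 11.2 CPM, against 14.4 to 50.8 CPM in the other WT_Full libraries. Its enterocyte and acinar sums were the lowest of the group too, at 15600 and 2.52 CPM. Its MHC class II and its B and plasma cell sums, at 406 and 611 CPM, were above those of replicates 1 and 2. The part of tissue content in the result was not tested.

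Within groups, 1 of 16 relations between the arms passed. Each activator was correlated with each of the 8 opposite genes over the 25 libraries after removing group means, which gave 16 relations tested by permutation within groups (100000 resamples, two-sided). After adjustment over the 16, only Arntl against Ciart passed, with Pearson r = -0.65 (permutation p = 0.00234, adjusted p = 0.0374) and Spearman rho = -0.59 (permutation p = 0.00862, adjusted p = 0.0690). Its r was -0.59 without the 2 libraries farthest from the median of Arntl. Within WT_Half it was -0.71 and within KI_Half -0.65 (exact permutation p = 0.0861 and 0.256, unadjusted). KI_Half replicate 7 had both the highest Arntl and the lowest Ciart level of its group, at 10.95 and 3.60 CPM. How far the KI_Half value rests on that library was not tested. The median r of Arntl over the 8 genes was -0.30, and 0.03 without the 2 libraries farthest from its median. The median r of Npas2 was -0.22, ranging from -0.41 with Per3 to 0.56 with Per1 (adjusted permutation p = 0.0714 for Per1). Within WT_Half, 8 of the 8 relations of Arntl were negative, but within KI_Half only 3. There r was 0.89 with Per3, 0.88 with Tef and 0.80 with Per2 (exact permutation p = 0.0153, 0.0139 and 0.0333, unadjusted). Of the 8 relations of Npas2, 6 were negative within KI_Half and 3 within WT_Half. Its r with Ciart within WT_Half was 0.93 (exact permutation p = 0.00258, unadjusted). Each library is 1 piece of tissue, so its genes share depth and cell make-up.

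Beyond the 10 genes, a list of 14 further clock components and 8 clock outputs was examined, also chosen with earlier results known. In KI_Half vs KI_Con, 7 of the 14 components were called, 4 higher and 3 lower, and 6 of the 8 outputs, 2 higher and 4 lower, where 37.9% of all genes were called. The median log2 difference was 0.27 over the components and -0.12 over the outputs, against 0.0035 over all genes tested. Nfil3, the D-box repressor that NR1D1 silences, rose by 2.70 ± 0.48 on the log2 scale (adjusted p = 0.00183), with 8.78 to 36.9 CPM in KI_Half and 2.41 to 5.02 CPM in KI_Con. Hlf, the relative of Dbp and Tef, fell by 1.64 ± 0.35 (adjusted p = 0.00442), with 5.23 to 21.5 CPM in KI_Half and 27.3 to 51.7 CPM in KI_Con. D-box activators and the D-box repressor thus changed in opposite directions in KI mice.

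Among further repressors, Bhlhe41 (DEC2), an E-box repressor, fell by 1.85 ± 0.36 (adjusted p = 0.00292), with 0.371 to 1.97 CPM in KI_Half and 3.92 to 8.02 CPM in KI_Con. Cry1, the PER partner whose gene also has a ROR-type control element, rose by 0.61 ± 0.18 (adjusted p = 0.0221), with 29.5 ± 5.91 CPM in KI_Half and 19.6 ± 4.88 CPM in KI_Con (SD, n = 6 and 4). Its relative Cry2 had 33.6 ± 6.45 CPM in KI_Half and 35.6 ± 5.43 CPM in KI_Con, a log2 difference of -0.08 ± 0.15 (adjusted p = 0.718). Of the protein turnover machinery, the casein kinases Csnk1d and Csnk1e, which phosphorylate PER, rose by 0.23 ± 0.08 and 0.54 ± 0.17 (adjusted p = 0.0409 and 0.0241). Btrc, a ubiquitin ligase subunit that targets PER, fell by 0.62 ± 0.18 (adjusted p = 0.0195). Clock itself had 39.8 ± 1.58 CPM in KI_Half and 38.7 ± 7.42 CPM in KI_Con, with a log2 difference of 0.05 ± 0.11 (adjusted p = 0.743).

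Of the outputs in KI_Half vs KI_Con, Upp1, a uridine phosphorylase, fell by 1.48 ± 0.16 (adjusted p = 3.34e-04) and ranked 70 of 16944 genes by p, with 77.7 ± 19.0 CPM in KI_Half and 219 ± 12.4 CPM in KI_Con (SD, n = 6 and 4). Usp2, a rhythmic deubiquitinase, fell by 0.98 ± 0.20 (adjusted p = 0.00396), Wee1, a mitotic kinase, by 0.69 ± 0.21 (adjusted p = 0.0241), and Nampt, the rate-limiting enzyme of NAD salvage, by 0.58 ± 0.17 (adjusted p = 0.0202). Alas1, the first enzyme of heme synthesis, rose by 0.36 ± 0.13 (adjusted p = 0.0413) and the tetraspanin Tspan4 by 0.72 ± 0.24 (adjusted p = 0.0323).

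**Figure D4:**
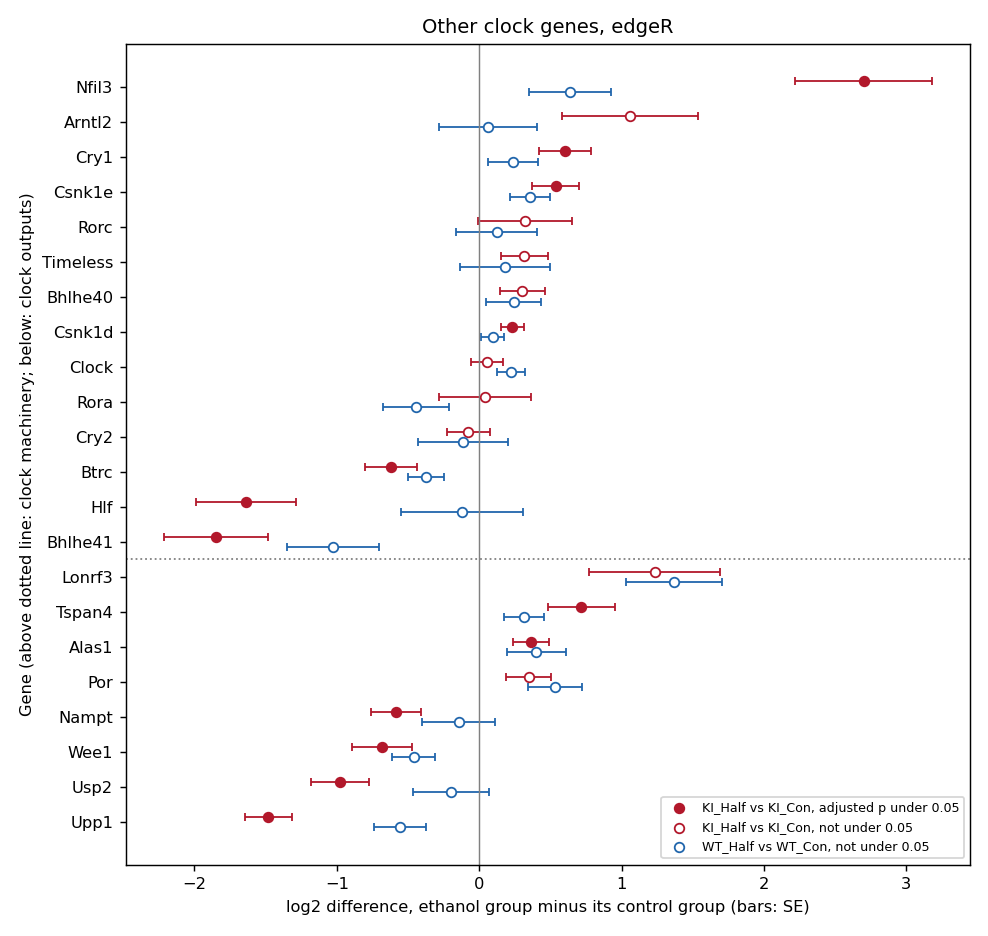
Log2 difference of 14 further clock components (above the dotted line) and 8 clock outputs (below it) in KI_Half vs KI_Con and WT_Half vs WT_Con, with bars of 1 SE; filled points had an adjusted p under 0.05. Nfil3 at 2.70 and Bhlhe41 at -1.85 are the ends of the range in KI mice. No wild-type point is filled, where 1.47% of all genes had such an adjusted p, against 37.9% in KI mice.

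No gene of either list was called by edgeR in the other comparisons. Of all genes, 1.47% were called in WT_Half vs WT_Con, 0.00592% in WT_Full vs WT_Con and 0% in the rest. At an unadjusted p under 0.05, WT_Half vs WT_Con had 3 higher and 2 lower of the 14 components and 3 higher and 2 lower of the 8 outputs, where 21.8% of all genes had such a p. WT_Full vs WT_Con had 0 higher and 4 lower components and 1 higher and 1 lower output, where 17.8% of all genes did. The 3 genes of both lists with the smallest p in WT_Full vs WT_Con were Rora, the receptor that opposes REV-ERB at its elements, Upp1 and Hlf, with log2 differences of -1.05 ± 0.29, -0.58 ± 0.17 and -1.47 ± 0.49 (adjusted p = 0.171, 0.182 and 0.204). Rora had 3.27 ± 1.01 CPM in WT_Full and 6.84 ± 1.45 CPM in WT_Con (SD, n = 4 each). In KI mice it had 4.41 ± 1.68 CPM in KI_Half and 4.32 ± 1.37 CPM in KI_Con, a log2 difference of 0.04 ± 0.32 (adjusted p = 0.9296).

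Glucocorticoids, which set peripheral clocks and induce Per1, were read from 10 target genes, Per1 among them. In KI_Half vs KI_Con, 6 of the 10 were called, all higher (Fkbp5, Zbtb16, Mt2, Dusp1, Errfi1 and Cdkn1a), where 20.0% of all genes were called higher. Fkbp5, a chaperone of the receptor, had 552 ± 178 CPM in KI_Half and 50.6 ± 35.5 CPM in KI_Con (SD, n = 6 and 4), a log2 difference of 3.45 ± 0.51 (adjusted p = 7.73e-04). It was also called in WT_Half vs WT_Con, with 379 ± 290 CPM in WT_Half and 48.2 ± 36.0 CPM in WT_Con (SD, n = 7 and 4). Its log2 difference there was 2.99 ± 0.67 (adjusted p = 0.0497). No other gene of the 10 was called in that comparison, where 1.47% of all genes were called. In WT_Full Fkbp5 had 74.4 ± 19.4 CPM. None of the 10 was called in WT_Full vs WT_Con, where only 0.00592% of all genes were called. The part of glucocorticoid signalling in the clock differences was not tested.

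Of the clock genes, 4 share exonic bases with a gene on the opposite strand in GENCODE M21, and whether reads were counted by strand is not stated in the labels or notes. Nr1d1 shares 263 bases (8.5% of its exonic length) with Thra, the thyroid hormone receptor alpha gene, and Dbp shares 539 bases (18.0%) with Sphk2, a sphingosine kinase gene. Tef shares 193 bases (2.5%) with the antisense gene Gm17597, and Arntl shares 33 bases (0.4%) with the antisense gene Gm45355. Thra had 61.1 ± 18.9 CPM in KI_Half and 129 ± 6.25 CPM in KI_Con (SD, n = 6 and 4) and fell by 1.07 ± 0.19 on the log2 scale (adjusted p = 0.00188). Whether reads in the shared bases were counted for Nr1d1, for Thra or for neither is not known. Sphk2 had 148 ± 30.1 CPM in KI_Half and 159 ± 19.8 CPM in KI_Con, a log2 difference of -0.10 ± 0.16 (adjusted p = 0.658).

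Genes outside the clock were ranked by the Pearson r of their log2 CPM with the arm difference over the 25 libraries, as a description that carries the group differences with it. Among 12687 genes, the most alike were Mill2, Slc5a4a, Cyp2c23, Nr3c2 and Rufy1, with r between 0.888 and 0.903. The most opposed were Ereg, Pgp, Prep, Ly6g and Rars, with r between -0.908 and -0.893. Nr3c2, the mineralocorticoid receptor gene, had 20.1 ± 4.64 CPM in KI_Half and 75.4 ± 10.3 CPM in KI_Con, and Slc5a4a, of the sodium-glucose transporter family, had 1.64 ± 1.24 CPM in KI_Half and 48.3 ± 5.47 CPM in KI_Con (SD, n = 6 and 4). Ereg, the growth factor epiregulin, had 31.0 ± 23.6 CPM in KI_Half and 1.62 ± 1.23 CPM in KI_Con. Ly6g, a neutrophil surface marker, had 193 ± 162 CPM in KI_Half and 0.555 ± 0.222 CPM in KI_Con. With group means removed, r was 0.479 to 0.621 for the alike genes and -0.677 to -0.478 for the opposed ones. These genes were picked by r over the same libraries, which favours such values, so they are no separate evidence of a relation within groups. Of the listed clock genes, Upp1 came closest, with r = 0.838.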

How the data were processed

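Polyadenylated RNA of 25 duodenum libraries was analysed. Per the submitters' processing notes, the authors used FastQC, Trimmomatic, HISAT2, SAMtools, featureCounts and DESeq2 with GRCm38, without stating versions or the strand setting. Counts were deposited as raw whole numbers of reads. Log2 fold changes and adjusted p-values were deposited as well and, per the file headers, are the authors' DESeq2 results for WT_Full vs WT_Con and KI_Half vs WT_Half. Each deposited table had 17220 lines for 17007 gene identifiers, and 213 repeats with equal counts were merged.

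Each comparison was fitted on its own groups over the whole table with edgeR 4.0.16 in R 4.3.3 (quasi-likelihood F test) after TMM normalisation and the default filter on low counts, with two-sided Benjamini-Hochberg adjusted p under 0.05 over all genes tested. Log2 differences are ± standard error, first group minus second, and levels are CPM after TMM over all libraries. Correlations and the arm difference used log2 CPM with a prior count of 2. Alternatives were DESeq2 1.42.0, limma 3.58.1 (voom with quality weights), 1 fit of all 25 libraries, RLE size factors, no filter, a replicate block, a Brunner gland covariate, leaving out libraries above 10 CPM of Ctrb1, and leaving out each library. DESeq2 on all 25 libraries was added after the data were seen. Steps were tested on simulated counts. Nothing in the labels states that libraries came from separate litters or cages, so p-values measure the spread between libraries of a group. The 2 most alike libraries of a group still differed with a chi-square of 33.6 per degree of freedom.

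All 10 clock genes are named in each comparison. Of the further clock lists, called genes and the 3 with the smallest p in WT_Full vs WT_Con are named, with the 5 genes most like and the 5 most unlike the arm difference, with a symbol and a mean log2 CPM of at least 1. Cry2 and Clock, and values of single genes of the glucocorticoid list, were added to these after their values were seen. The members and lists were chosen with earlier results of these data known. A listed clock component is not reported here. Sequences came from RefSeq promoters of GRCm38.p6, and positions from GENCODE M21.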

Additional observations from a re-analysis of the deposited data

Results flagged for a closer look

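Of 55 sets of levels examined, which cover the clock genes in groups of 4 to 7 libraries and the arm difference, 2 held a library set apart by a gap to its nearest neighbour beyond the 95% critical value of Dixon's test. Chance flags about 1 in 20 such sets. Ciart had 3.60 CPM in KI_Half replicate 7, below the other KI_Half libraries at 8.22 to 10.6 CPM. Tef had 54.3 CPM in WT_Half replicate 1, below the other WT_Half libraries at 101 to 123 CPM. That same library had the lowest T and NK cell marker sum of WT_Half, at 10.4 CPM, and the highest acinar marker sum, at 39.7 CPM. Its enterocyte, duodenal, glucocorticoid and MHC class II sums were also the lowest of WT_Half, at 15000, 661, 482 and 183 CPM. The same held for its B and plasma cell, smooth muscle, further clock component and clock output sums. Its Brunner gland sum, at 125 CPM, was not the lowest. The part of tissue content in its Tef level was not tested.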

How the results depend on the processing

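In KI_Half vs KI_Con, 8 of 10 clock genes were called under every alternative except the replicate block (7, without Arntl) and the fit without libraries above 10 CPM of Ctrb1 (6, without Arntl and Npas2). Of all genes, 36.4% were called with the replicate block, 15.1% in that fit and 29.0% to 46.6% under the other alternatives. In WT_Full vs WT_Con the count of 0 moved to 6 with DESeq2, 6 with limma-voom, 7 with edgeR on all 25 libraries and 8 with DESeq2 on all 25 (5.49%, 8.35%, 7.58% and 12.3% of all genes). It ran from 0 to 5 when single libraries were left out (0% to 12.2% of all genes). In WT_Half vs WT_Con the count of 3 moved to 7, 5, 5 and 6 under the same 4 tests (7.96%, 7.25%, 4.23% and 8.36% of all genes). It moved to 1 with the Brunner gland covariate (0.0412%) and to 0 with the replicate block (0%). Leaving out single libraries gave 1 to 4 (0.124% to 2.63%). Limma-voom called 3 genes in KI_Half vs WT_Half and 3 in the interaction (5.23% and 6.69% of all genes), where edgeR called 0 (0% in each). The cause of these differences was not tested. Some of the fits also held fewer libraries. Same-numbered libraries of 2 groups did not deviate together, with correlations from -0.401 to 0.511 over 25 pairs and the own number best in 4, so the numbers were not taken to pair mice.

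The median r of Arntl with the opposite arm was -0.30, 0.03 without the 2 farthest libraries and 0.50 within KI_Half. That of Npas2 was -0.22, 0.08 within WT_Half and -0.66 within KI_Half. The arm difference moved by less than the spread between libraries with medians in place of means, and hardly at all with RLE size factors, since scaling cancels between the arms. No called clock gene changed sign under any alternative run. Leaving out libraries high in Ctrb1 gave no other fit in KI_Half vs WT_Half and WT_Full vs WT_Half, which hold none of them.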
